A study of Mus musculus with 40 samples.

Results

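Strong PU.1 binding sites that were listed in macrophages of C57BL6/J mice and had no counterpart in BALBc/J mice numbered 397. They were chosen from the 67074 PU.1 peaks of untreated C57BL6/J macrophages. A site was kept if its tag count was at or above the median of that list (38.7 tags per 10 M sequenced tags, M for mega) and if no PU.1 peak of BALBc/J, untreated or stimulated, overlapped it or lay within 1 kb. Of the 33727 strong peaks, 32942 overlapped a BALBc/J PU.1 peak and are called shared sites here. Another 388 had a BALBc/J peak within 1 kb but none overlapping, and the 397 sites made up 1.18% of the strong peaks.

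The cells were thioglycollate-elicited peritoneal macrophages of a pair of inbred strains, C57BL6/J and BALBc/J, which differ by natural sequence variants. All groups share this elicitation and an overnight culture, and no gene was altered in any of them. Each strain was left without treatment or given 100 ng/ml KLA (Kdo2-lipid A, an agonist of Toll-like receptor 4) for 1 h, and for RNA-Seq also for 4 h. There was 1 ChIP-Seq library per strain and treatment for PU.1, C/EBPa and the histone marks H3K4me2 and H3K27Ac. p65 had 2 per strain after KLA, RNA-Seq had 3 per strain and GRO-Seq, which measures RNA still attached to the polymerase, had 2 per strain. ChIP-Seq libraries held 7.10 to 14.4 M tags, RNA-Seq 17 to 20.3 M and GRO-Seq 39.4 to 48.3 M. Nothing in the labels ties libraries to separate animals, so no p-value here can be taken to measure the spread between animals. The p-values rest on these libraries alone, and those of GRO-Seq on a variance fitted over all genes. The cells were analysed in bulk, where fewer cells of a type and less RNA per cell cannot be told apart.

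PU.1, encoded by Sfpi1, is an ETS family factor that binds DNA around a GGAA core and is required for macrophage development. It binds distal enhancers together with partners such as the leucine zipper factor C/EBPa, and such places carry dimethylated lysine 4 of histone H3 (H3K4me2) and, where active, acetylated lysine 27 (H3K27Ac). The NF-kB subunit p65 enters the nucleus after Toll-like receptor stimulation and binds largely at enhancers that lineage factors already occupy. In RNA-Seq neither factor passed the test between strains: the log2 difference of Sfpi1 (C57BL6/J minus BALBc/J, in all that follows) was 0.05 with an adjusted p of 0.915, and that of Cebpa was 0.06 with an adjusted p of 0.903.

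The tag count chose the sites and is given as a description. Its quartiles were 42.9, 49.8 and 67.8 tags per 10 M, and its maximum was 280.7. Shared sites had a median of 78.8 and a maximum of 459.1, so the strain-specific sites lay toward the weak end of strong binding, and 71 of them (17.9%) reached the 75th percentile of the list, 78.8. At the limit, 39 sites had exactly 38.7 tags per 10 M, while 35 otherwise eligible peaks with 37.3 fell just outside. The smallest gap to a BALBc/J PU.1 peak among the members was 1001 bp and the largest gap among the sites left out was 975 bp. The median gap was 2936 bp, 270 sites lay less than 5 kb from a BALBc/J peak and 78 lay more than 10 kb away. At the depth of the BALBc/J libraries, a site of the median level would have given 41.8 tags in the untreated library and 40.9 in the stimulated one. The peak caller's tag thresholds there were 8 and 7, but it also required 4-fold more tags than input and than the surrounding 10 kb. The only build named for alignment is mm9. The part of these limits and of alignment in the absence from the BALBc/J lists was not tested.

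Sequences can be shown for the few members that lie at a gene start, because only promoter sequence was used here. Of 9 sites centred within 250 bases upstream of a start, 6 had a RefSeq start at the same place in build GRCm38.p6, the C57BL/6J reference. The 4 below were chosen to show the PU.1 core at the binding centre. Those left out, at Pak4 and Coro7, had their nearest core 18 and 25 bases from the centre. Each run holds up to 100 bases around the peak centre on the strand of the gene, and capitals mark GGAA or its complement TTCC.
Soat1: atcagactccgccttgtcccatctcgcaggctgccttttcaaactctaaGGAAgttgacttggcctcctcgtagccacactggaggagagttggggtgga
2700038G22Rik: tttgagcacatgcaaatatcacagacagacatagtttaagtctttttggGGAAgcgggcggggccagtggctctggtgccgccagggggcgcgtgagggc
Zfp58: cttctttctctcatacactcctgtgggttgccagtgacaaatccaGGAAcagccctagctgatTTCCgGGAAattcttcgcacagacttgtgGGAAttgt
Sertad1: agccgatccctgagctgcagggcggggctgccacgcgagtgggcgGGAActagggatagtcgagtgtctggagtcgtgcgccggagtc

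The Soat1 site (Soat1 is a cholesterol acyltransferase) lay at chr1:158404530-158404730 in mm9, centred 171 bases upstream of the start, with 51.2 tags per 10 M. Its core lay 1 base from the centre and was the only one in the longer form AGGAAGT. PU.1 stood only 4.98-fold above the surrounding 10 kb there, and no PU.1 peak was listed after KLA in C57BL6/J. The core of 2700038G22Rik, at chr5:23356139-23356339 and 175 bases upstream, was also 1 base from the centre, in a site with 60.8 tags per 10 M. Zfp58, a zinc finger gene, had its site at chr13:67601430-67601630, 72 bases upstream, and Sertad1 at chr7:28271833-28272033, 38 bases upstream. Both had a core 5 bases from the centre, with 53.9 and 51.2 tags per 10 M. GGAA on either strand was present in 6 of 6 matched members and in 67.2% of 32851 promoters over a window of 100 bases. The window of the promoters lay at a fixed place and was not centred on a peak. AGGAAGT was present in 1 of 6 against 2.99%, and the C/EBP motif TTGCNNAA in 0 of 6 against 3.94%. All 6 promoters had H3K4me2 in both strains, so they are not typical of the set described next.

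Most members lay away from gene starts. A start was within 1 kb of 28 sites (7.05%), against 18.2% of shared sites, and within 10 kb of 142 (35.8%). The median distance to the nearest start was 19244 bp, against 14203 bp for shared sites, and 194 sites (48.9%) lay inside a transcript, against 52.5%. Chromosome 8 held 30 of them, 1.84% of its strong peaks, and chromosome 9 held 30 (1.75%), while chromosome 11 held 19 (0.765%) and the X chromosome 2 of 572 (0.350%). A second member lay within 100 kb of 75 sites and within 10 kb of 28. Windows of 1 Mb with 3 or more members numbered 20 of 309 and held 67 of the sites.

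The densest window was chromosome 8 from 36 to 37 Mb, where 6 of 47 strong peaks were C57BL6/J only, near Tnks (a poly-ADP-ribose polymerase), Cldn23 and Ppp1r3b. It held the strongest member of all, chr8:36199820-36200020, 171176 bp upstream of the Tnks start, with 280.7 PU.1 tags per 10 M untreated and 117.1 after KLA. The neighbouring Tnks sites had 113.4, 85.7 and 48.4 tags per 10 M. All 4 lay in H3K27Ac regions of untreated C57BL6/J (465.5 tags per 10 M over the first pair, 297.3 over the other), and 3 of 4 had C/EBPa there, from 20 to 110.2 tags per 10 M. The same 3 had p65 in both C57BL6/J libraries, highest at the second site with 117.6 and 106.6. No C/EBPa peak, mark region or p65 peak of BALBc/J was listed at any of the 4. Tnks RNA was 334, 263 and 92.6 tags per 10 M in C57BL6/J (untreated, KLA 1 h and 4 h) and 200, 93.4 and 195 in BALBc/J. These ranges overlapped, and the log2 difference of 0.37 did not pass the test (adjusted p = 0.691).

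The other windows with 4 members each were chromosome 19 from 17 to 18 Mb (Gcnt1 and Prune2), chromosome 8 from 42 to 43 Mb (B430010I23Rik, Mtus1 and Pdgfrl), chromosome 3 from 87 to 88 Mb (Cd5l, Etv3, Fcrl1 and Kirrel) and chromosome 17 from 34 to 35 Mb (AA388235, Btnl4, Col11a2 and H2-Ob). Gcnt1, which encodes a glycosyltransferase of core O-glycans, had 3 of them. Its sites at 99.6 and 56.7 PU.1 tags per 10 M had C/EBPa, both marks and p65 in C57BL6/J, and the only BALBc/J entry at either was a C/EBPa peak of 28.8 after KLA at the first. The third, 3952 bp into the gene, had both marks in both strains.

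PU.1 was listed again after KLA in C57BL6/J at 286 of the 397 sites (72%, 95% interval 67.3 to 76.4), where all strong sites gave 94.4% and shared sites 95.2%. The intervals here and below are exact binomial (Clopper-Pearson) and cover counting error only.

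C/EBPa was listed at 143 members in untreated C57BL6/J (36.0%, 31.3 to 41.0) and at 55 in untreated BALBc/J (13.9%, 10.6 to 17.6). Shared sites had 45.3% and 48.8%, without such a gap. The peak was in C57BL6/J only at 96 members (24.2%), against 5.75% of all strong sites, and in BALBc/J only at 8 (2.02%), against 8.85%. Of the members with C/EBPa in C57BL6/J, 32.9% kept it in BALBc/J, against 87.9% of shared sites. After KLA the shares were 27.7% in C57BL6/J and 9.07% in BALBc/J, with 78 sites in C57BL6/J only (19.6%, against 6.65% of all strong sites) and 4 in BALBc/J only (against 6.61%). At the 47 members with a C/EBPa peak in both strains the median heights were 78.2 and 59.6 tags per 10 M and the median log2 ratio per site was -0.06, against -0.19 at shared sites. C57BL6/J was at least 2-fold higher at 6 of the 47 (12.8%), against 1.09% of shared sites. With 1 library per strain there is no test of these shares.

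H3K4me2 covered 293 members in untreated C57BL6/J (73.8%, 69.2 to 78.1) and 145 in BALBc/J (36.5%, 31.8 to 41.5), and after KLA the shares were 69.8% and 36.0%. Shared sites had 82.3% and 80.4% without treatment. It was in C57BL6/J only at 159 members (40.1%), against 6.74% of all strong sites, and in BALBc/J only at 11, where the background was 4.34%. After KLA it was in C57BL6/J only at 146 members (36.8%, against 6.08%) and in BALBc/J only at 12 (against 4.81%). H3K27Ac covered 203 members in untreated C57BL6/J (51.1%, 46.1 to 56.2) and 114 in BALBc/J (28.7%, 24.3 to 33.4). It was in C57BL6/J only at 96 (24.2%, against 6.61%) and in BALBc/J only at 7 (against 5.67%). After KLA, H3K27Ac covered 33.0% of members in C57BL6/J and 21.9% in BALBc/J, and shared sites also had less (51.6% and 52.2%, from 62.0% and 61.4%). After KLA, 55 members had it in C57BL6/J only (13.9%, against 6.02% of all strong sites) and 11 in BALBc/J only (2.77%, against 6.44%). Both marks together were present at 181 members in C57BL6/J (45.6%) and 93 in BALBc/J (23.4%), and neither at 82 (20.7%) and 231 (58.2%). Shared sites had both marks at 58.1% and 57.1%, and neither at 13.8% and 15.3%.

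Where a mark was kept in both strains, its signal was still higher in C57BL6/J more often than at shared sites. Among 134 members with H3K4me2 in both, 25.4% had at least 2-fold more tags in C57BL6/J, against 6.15% of shared sites. For H3K27Ac, 87 of 107 members (81.3%) were higher in C57BL6/J, with a median log2 ratio of 0.42, against 70.2% and 0.27 at shared sites. A region can be far wider than the PU.1 site inside it, and neighbouring members can share one.

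p65 after KLA was listed at 178 and 151 members in the C57BL6/J libraries (44.8% and 38.0%) and at 49 and 43 in the BALBc/J libraries (12.3% and 10.8%). The strain means were 41.4% ± 4.81 and 11.6% ± 1.07 (SD, n = 2), a difference of 29.8 percentage points, and the groups did not overlap. The exact two-sided permutation test gave p = 0.333, the smallest that 2 libraries against 2 allow. At shared sites the means were higher in both strains, 54.8% and 46.8%, with a strain difference of 8.06 points. The strain difference of the members was 21.8 points larger (exact permutation p = 0.333, again the smallest possible). A peak in both C57BL6/J libraries and in no BALBc/J library was found at 96 members (24.2%), against 3.72% of all strong sites. The opposite pattern was found at 0 members, which allows a share of up to 0.925%, where the background was 0.353%. All 4 libraries had p65 at 30 members and none had it at 207. The input used to call p65 peaks in BALBc/J was that of C57BL6/J in both libraries, and its part in the difference was not tested.

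**Figure D1:**
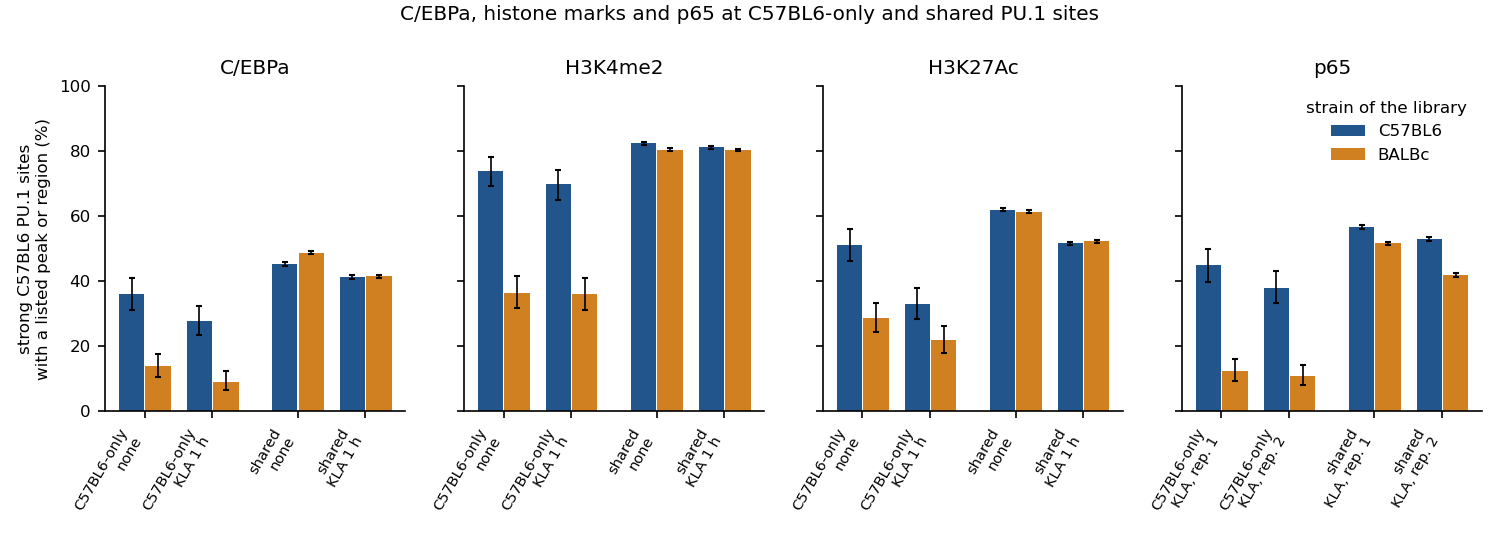
Share of sites (%, y axis) with a listed C/EBPa peak, H3K4me2 region, H3K27Ac region or p65 peak, for the 397 C57BL6-only and the 32942 shared PU.1 sites, by treatment or p65 replicate; each bar is 1 library and error bars are exact 95% binomial intervals. The BALBc bar stands below the C57BL6 bar in every C57BL6-only pair (36.0% and 13.9% for untreated C/EBPa), while shared pairs are nearly level except for p65.

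The other readouts were counted by the C/EBPa pattern of the sites. The 96 members with C/EBPa in C57BL6/J only had H3K4me2 at 75 sites in C57BL6/J and 18 in BALBc/J, H3K27Ac at 46 and 9, and p65 at 67 and 58 in the C57BL6/J libraries but 3 and 4 in those of BALBc/J. The 47 members with C/EBPa in both strains had H3K4me2 at 42 in C57BL6/J and 38 in BALBc/J, H3K27Ac at 39 and 30 (83.0% and 63.8%), and p65 at 31 and 28 against 27 and 19. The 246 members without C/EBPa in either strain had H3K4me2 at 168 and 83 and H3K27Ac at 112 and 69. Their share with H3K27Ac in C57BL6/J was 45.5%, close to the 47.9% of members with C/EBPa in C57BL6/J only. p65 was listed at 77 and 62 of the 246 in C57BL6/J (31.3% and 25.2%) and at 16 and 16 in BALBc/J. The C57BL6/J shares of p65 with C/EBPa in C57BL6/J only were 69.8% and 60.4%. None of C/EBPa, H3K4me2 and H3K27Ac was listed in BALBc/J at 223 members (56.2%), against 61 (15.4%) in C57BL6/J, while shared sites had none at 11.7% in BALBc/J and 11.1% in C57BL6/J. A full set in C57BL6/J with none in BALBc/J occurred at 35 members (8.82%) and at 26 shared sites (0.0789%).

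The 10 strongest members were read site by site. None had C/EBPa, H3K4me2 or p65 in any BALBc/J list, and 1 of them, near Thap6, had H3K27Ac there. The site at chr12:8457464-8457664, 49.2 kb downstream of the start of Rhob (a small GTPase), had 181.2 PU.1 tags per 10 M untreated and 188 after KLA. It had C/EBPa at 36.1 and 40, H3K4me2 at 68 and 46.3, H3K27Ac at 184.6 without treatment, and p65 at 164.9 and 141.3. The site at chr8:129302693-129302893, whose nearest start was Tomm20, had 154.9 PU.1 tags per 10 M, C/EBPa at 38.1, H3K4me2 at 94.9, H3K27Ac at 191.1 and p65 at 148.2 and 105.8. The site at chr7:120181466-120181666 near Rassf10, also with 154.9, carried the highest C/EBPa of these 10 (144.3 and 122) and p65 at 93.3 and 55.3, but no H3K27Ac. The site at chr2:120908446-120908646 inside Tgm5 was nearly bare in comparison, with 167.3 PU.1 tags per 10 M beside C/EBPa at 16 and H3K4me2 at 25.3, without H3K27Ac or p65. The other 5 were near Tkt (chr14:31390926-31391126, 200.5), Ptp4a2 (chr4:129538733-129538933, 192.2), Gm6994 (chr14:77911369-77911569, 171.5, inside Enox1), Pgbd5 (chr8:126979347-126979547, 163.2) and Thap6 (chr5:92386986-92387186, 159, inside Rchy1). Of these 5, 3 had C/EBPa in C57BL6/J, at Ptp4a2, Gm6994 and Pgbd5.

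How far PU.1 stood above its own surroundings varied continuously among the members, and they were split at 8-fold. The peak caller required 4-fold more tags than the surrounding 10 kb, and the members' fold ran from 4 to 452.8 with a median of 17.4, against 35.1 at shared sites. Under 8-fold lay 146 members (36.8%), against 8.08% of shared sites. All 146 had a BALBc/J PU.1 peak within 5 kb, at a median gap of 1837 bp. In C57BL6/J itself only 48 of them (32.9%) had PU.1 again after KLA, against 74.3% of shared sites under 8-fold. These low-contrast members often carried marks in both strains: H3K4me2 at 114 in C57BL6/J (78.1%) and 97 in BALBc/J (66.4%), and H3K27Ac at 114 (78.1%) and 101 (69.2%). C/EBPa was listed at 43 (29.5%) and 37 (25.3%). Shared sites under 8-fold had H3K4me2 at 84.7% and 83.1%, H3K27Ac at 83.5% and 82.9%, and C/EBPa at 35.4% and 38.5%. Whether the local limit of the peak caller set their absence from the BALBc/J lists was not tested.

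The 251 members at 8-fold or more had PU.1 after KLA in C57BL6/J at 238 sites (94.8%), close to the 97.0% of shared sites at that fold. Their strain difference was larger in each readout. C/EBPa was listed at 100 (39.8%) in C57BL6/J and 18 (7.17%) in BALBc/J, H3K4me2 at 179 (71.3%) and 48 (19.1%), and H3K27Ac at 89 (35.5%) and 13 (5.18%). p65 was listed at 130 and 113 (51.8% and 45%) in C57BL6/J and at 16 and 10 (6.37% and 3.98%) in BALBc/J. Shared sites at that fold had H3K27Ac at 60.1% and 59.5%. No member at 8-fold or more had H3K27Ac in BALBc/J only. The fold is a value of the PU.1 library that chose the sites, and the 8-fold limit was set after seeing the data.

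**Figure D2:**
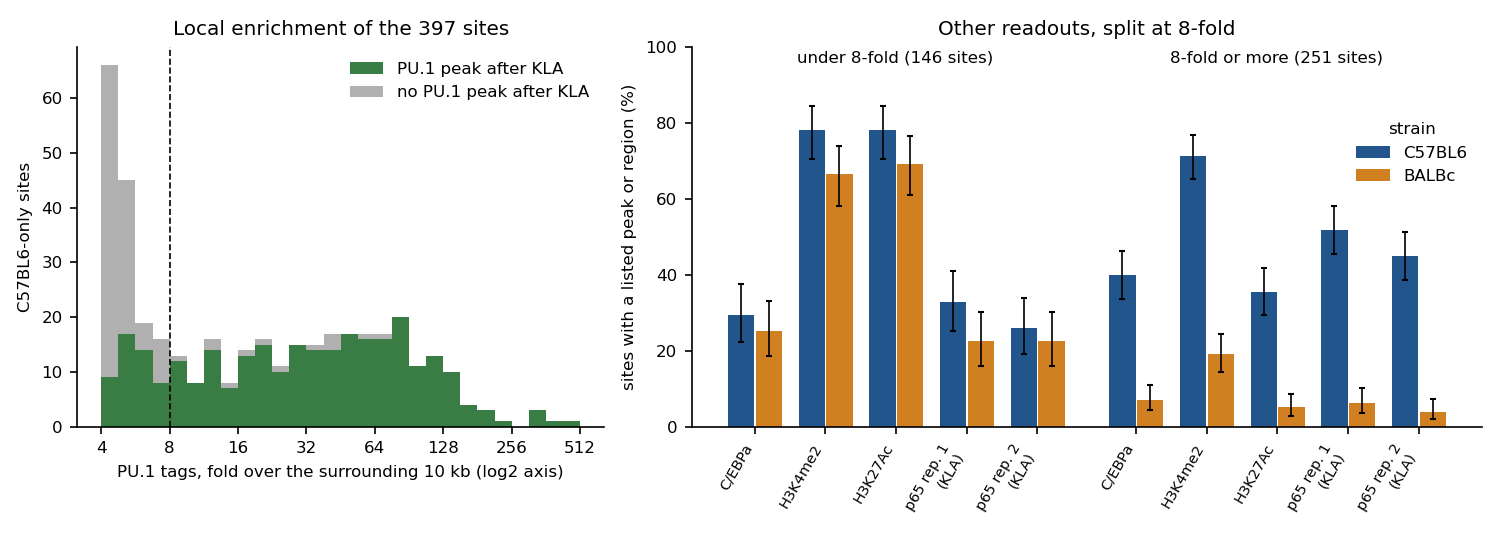
Left, number of C57BL6-only sites (y axis) by PU.1 fold over the surrounding 10 kb (log2 x axis), coloured by whether PU.1 was listed again after KLA in C57BL6; the dashed line is at 8-fold. Right, share of sites (%) with each readout (untreated C/EBPa and marks, p65 after KLA) below and above 8-fold, each bar 1 library with exact 95% binomial intervals. The 146 sites under 8-fold have H3K27Ac at 78.1% and 69.2% in C57BL6 and BALBc, and the 251 sites above have 35.5% and 5.18%.

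The 71 members at or above the 75th percentile of the list had C/EBPa at 28 in C57BL6/J and 3 in BALBc/J, H3K4me2 at 60 and 17, H3K27Ac at 42 and 19, and p65 at 38 and 33 against 3 and 2. Of 28 members within 1 kb of a start, H3K4me2 covered 28 in C57BL6/J and 26 in BALBc/J, and H3K27Ac 22 and 19. p65 was listed at 12 and 9 of the 28 in C57BL6/J and at 7 and 5 in BALBc/J. Of 255 members over 10 kb from a start, H3K4me2 covered 176 (69.0%) and 62 (24.3%), and H3K27Ac 124 (48.6%) and 50 (19.6%).

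Expression of the nearest genes did not enter the choice of sites. The 397 members had 366 nearest genes, of which 256 passed the filter on low RNA values (20 tags per 10 M in at least 2 libraries). Strain was tested with limma across all 10715 such genes, with treatment as a covariate and Benjamini-Hochberg adjustment. Calls needed an adjusted p under 0.05 together with a fitted difference of at least 2-fold. Among the 256, 19 genes (7.42%) were higher in C57BL6/J, where 1.2% of all tested genes were, and 8 (3.13%) were higher in BALBc/J, where 2.52% were. Genes nearest to shared sites gave 1.35% and 1.82%. The median log2 difference was 0.04 for the members' genes, -0.06 for genes at shared sites and -0.08 for all genes, and 55.5%, 38.5% and 35.0% lay above 0. Read the other way, 19 of the 129 genes higher in C57BL6/J (14.7%) and 8 of the 270 higher in BALBc/J (2.96%) were nearest to a member. Of all 10715 tested genes, 256 (2.39%) were. Centring each library on its median moved the RNA-Seq counts to 21 and 6 of the members' genes, and to 167 and 214 of all genes.

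Genes beside members were also counted in RNA-Seq by the other readouts of their sites. Among all tested genes, 1.2% were higher in C57BL6/J and 2.52% in BALBc/J. With H3K27Ac in C57BL6/J only, 69 genes were tested, 7 (10.1%) were higher in C57BL6/J and 1 in BALBc/J, and their median log2 difference was 0.28. With H3K27Ac in both strains, 89 genes gave 5 and 3, with a median of 0.03. H3K4me2 in C57BL6/J only gave 10 and 2 of 94, C/EBPa in C57BL6/J only 5 and 1 of 57, and p65 in C57BL6/J only 6 and 1 of 59. Differences between these classes were not tested, since the same genes occur in several of them. Members at 8-fold or more over their surroundings had 14 and 5 calls among 148 genes, and those under it had 7 and 3 among 115. Sites within 10 kb of the start gave 9 and 3 among 99, and sites beyond it 13 and 5 among 163.

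In GRO-Seq, 219 of the nearest genes were tested with limma, and 6 (2.74%) were higher in C57BL6/J, against 0.428% of all tested genes, and 1 (0.457%) was higher in BALBc/J, against 0.482%. The variance behind these GRO-Seq p-values was fitted over all genes, so a gene's own spread between libraries had no weight. With H3K27Ac in C57BL6/J only, 2 of 61 genes were higher in C57BL6/J, and with it in both strains 4 of 79. H3K4me2 in C57BL6/J only gave 2 of 78, C/EBPa 0 of 51 and p65 2 of 48. Members at 8-fold or more over their surroundings gave 3 of 122, and those under it 5 of 104. Differences between these classes were not tested. The median of all genes in GRO-Seq lay at -0.22, and that of the members' genes at -0.14. Centring each library on its median moved the first of these to 0.00 and changed the counts to 13 and 1 of the members' genes and to 87 and 28 of all genes.

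**Figure D3:**
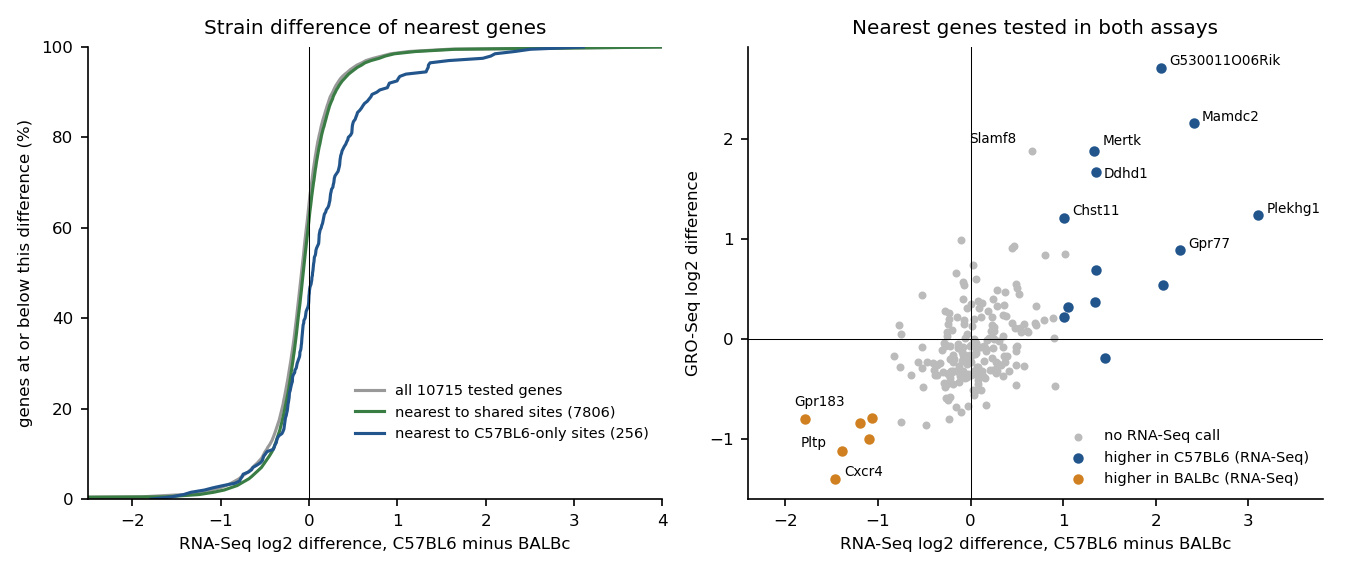
Left, cumulative share of genes (%, y axis) by RNA-Seq log2 difference (C57BL6 minus BALBc, x axis) for all 10715 tested genes, the 7806 nearest to shared sites and the 256 nearest to C57BL6-only sites. Right, RNA-Seq against GRO-Seq log2 difference for nearest genes tested in both, coloured by RNA-Seq call. The curve of the C57BL6-only sites' genes lies to the right, with a median of 0.04 against -0.08 for all genes, and the genes called in both assays lie in the upper right (5) and lower left (Cxcr4).

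Plekhg1, the nearest gene of 3 members, had the largest difference. Its RNA was 267, 244 and 110 tags per 10 M in C57BL6/J (untreated, KLA 1 h and KLA 4 h) and 20.7, 10.6 and 10.9 in BALBc/J. Every C57BL6/J value was above every BALBc/J value, and the log2 difference was 3.11 (SE 0.22, adjusted p = 0.000168). Its strongest site, chr10:6554925-6555125, 51.1 kb into the gene with 78.8 PU.1 tags per 10 M, had H3K4me2 and p65 in C57BL6/J alone. The second, chr10:6567139-6567339 with 48.4, also had C/EBPa (28.1) in C57BL6/J alone. GRO-Seq levels were 97.1 and 59.2 in C57BL6/J and 36.2 and 18.9 in BALBc/J, a log2 difference of 1.24 that missed the threshold (adjusted p = 0.0562).

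Cd5l, a secreted protein of tissue macrophages that limits their apoptosis, had 1902, 1722 and 1230 tags per 10 M in C57BL6/J and 316, 286 and 205 in BALBc/J. The groups did not overlap, and in both strains the level was lowest at KLA 4 h (log2 difference 2.54, adjusted p = 5.42e-05). Its site, chr3:87126581-87126781, lay 35.1 kb upstream with 56.7 PU.1 tags per 10 M, and C/EBPa (30.1) and H3K4me2 (132.9) were listed there in C57BL6/J alone. Mamdc2, which has an extracellular MAM domain, had 6127, 5111 and 3317 tags per 10 M against 1143, 941 and 627 (log2 difference 2.41, adjusted p = 5.42e-05). GRO-Seq gave 265 and 156 against 51.1 and 27.7 (log2 difference 2.15, adjusted p = 2.69e-07), so nascent and mature RNA were both higher in C57BL6/J. One of its sites, 54.5 kb upstream, was bare of the other readouts. The other, chr19:23521908-23522108 and 804 bp into the gene, had H3K27Ac at 802 tags per 10 M in C57BL6/J and 190 in BALBc/J, and H3K4me2 at 2164 and 987.

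Gpr77, a receptor of complement C5a, had 139, 136 and 39.8 tags per 10 M against 10.9, 13.3 and 10.2 (log2 difference 2.26, adjusted p = 0.00282). Tspan32, a tetraspanin of blood cells, had its site 78 bp upstream of the start, at chr7:150191385-150191585. H3K4me2 there was 1362 tags per 10 M in C57BL6/J and not listed in BALBc/J. Its RNA was 50.0, 43.6 and 27.4 against 1.99, 3.34 and 0.374 (log2 difference 2.06, adjusted p = 0.000364).

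G530011O06Rik is a noncoding transcript whose level was highest at KLA 4 h in both strains. RNA was 91.6, 199 and 481 tags per 10 M against 27.7, 48.1 and 56.3 (log2 difference 2.05, adjusted p = 0.00304), and GRO-Seq was 282 and 345 against 33.5 and 45.6 (log2 difference 2.71, adjusted p = 1.22e-12). Its site at chrX:166419087-166419287 lay 2.34 kb upstream, inside Mid1, with 83 PU.1 tags per 10 M, H3K27Ac only after KLA (107) and p65 at 110.6 and 81.3, all in C57BL6/J alone. No source used here states whether counting was stranded, so its tags and those of overlapping genes may not be separated.

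Ddhd1, a phospholipase, also had its highest level at KLA 4 h in both strains: RNA was 957, 1111 and 3772 tags per 10 M against 481, 442 and 1100 (log2 difference 1.35, adjusted p = 0.00329). The ranges overlapped across treatments, but C57BL6/J was higher at each. GRO-Seq was 330 and 1679 against 192 and 272 (log2 difference 1.67, adjusted p = 4.35e-06). Whether the response to KLA differed between strains was not tested. Its site, chr14:46284531-46284731, 6.81 kb upstream, had a fold over its surroundings of only 6.73, and H3K27Ac of 1173 tags per 10 M in C57BL6/J and 38.5 in BALBc/J.

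Mertk, the receptor kinase by which macrophages take up apoptotic cells, was the only gene of the 6 lists described below that was both called and nearest to a member. RNA was 1088, 757 and 1097 tags per 10 M against 307, 192 and 903, with overlap through the last value (log2 difference 1.33, adjusted p = 0.0297). GRO-Seq was 290 and 131 against 85.6 and 22.8 (log2 difference 1.88, adjusted p = 2.06e-05). Its site, chr2:128573363-128573563 inside the gene, had a fold of 4.54 over its surroundings, and both marks were listed in both strains. Chst11, a chondroitin sulfotransferase, was called in both assays too (1.01 with adjusted p = 0.0397, and 1.21 with adjusted p = 0.0177), but its RNA-Seq call was lost under 7 alternatives, among them leaving out the untreated (0.90) or KLA 1 h (0.72) library of either strain. Slamf8, a receptor of the SLAM family, passed in GRO-Seq only (1.88, adjusted p = 6.4e-05), with an RNA difference of 0.66. Its member, chr1:174516680-174516880, had marks in C57BL6/J alone, H3K27Ac at 34.3 tags per 10 M untreated and 695 after KLA, and H3K4me2 at 123.4 and 1480.

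The remaining genes higher in C57BL6/J by the naming rule were 4930523C07Rik (2.07), Acpp (1.82), Slc46a3, a lysosomal transporter (1.45), 5830416I19Rik (1.36), Sik1, a salt-inducible kinase (1.35), and Tkt, the transketolase beside the member with the second highest PU.1 count (1.05, adjusted p = 0.00648). Tkt had 4066, 3167 and 2670 tags per 10 M against 2101, 1840 and 996, without overlap, and the difference was 0.86, under 2-fold, without the KLA 4 h library of either strain. Its site had both marks in untreated C57BL6/J and not in BALBc/J. The other 4, named after their values were seen and only to complete the 19, were Aoah, which deacylates lipopolysaccharide (1.35), Mpp7 (1.33), Scgb1a1 (1.12) and Tmsb10 (1.01). In GRO-Seq 4930523C07Rik (0.54), Slc46a3 (-0.19), Sik1 (0.69), Tkt (0.32), Aoah (0.37) and Tmsb10 (0.22) did not pass the limma test (adjusted p from 0.690 to 0.879). Acpp, 5830416I19Rik, Mpp7 and Scgb1a1 were not tested there. GRO-Seq levels of 5830416I19Rik were 10.2 and 0.159 tags per 10 M in C57BL6/J and 20.1 and 1.18 in BALBc/J.

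The 8 genes higher in BALBc/J were 3.13% of the tested nearest genes, against 2.52% of all tested genes. Gpr183, an oxysterol receptor, had 138, 169 and 16.1 tags per 10 M in C57BL6/J against 951, 747 and 29 (log2 difference -1.79, adjusted p = 0.0177). The Gpr183 site had a fold of 5.02 over its surroundings, both marks in both strains and no PU.1 peak after KLA in C57BL6/J. Cxcr4, the receptor of CXCL12, had 1846, 1349 and 59.9 against 5231, 3261 and 203 (log2 difference -1.46, adjusted p = 0.000858), and it was also lower in GRO-Seq (-1.40, adjusted p = 0.0154). Both genes were lowest at KLA 4 h, and BALBc/J was higher at each time. Plac8 had 12.9, 12.5 and 45.6 against 43.2, 49.1 and 236 (-1.58, adjusted p = 0.00338). The Plac8 site, chr5:100986101-100986301, was among the stronger members with 134.1 PU.1 tags per 10 M, and H3K4me2 (395.5) and p65 (52.9 and 67.1) were listed there in C57BL6/J alone, so site and gene went opposite ways.

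Pltp, the phospholipid transfer protein, had 5256, 4376 and 4490 tags per 10 M against 14201, 12713 and 10186, without overlap (log2 difference -1.38, adjusted p = 0.000748). Its site lay 656 bp upstream with a fold over its surroundings of 4.31, and H3K27Ac was 1632 tags per 10 M in C57BL6/J and 1724 in BALBc/J without treatment, and 114.4 and 768.5 after KLA. The others were Ece1 (-1.33), Tor3a (-1.19), Tgfbr2, a receptor of TGF-beta (-1.10), and Ccdc48 (-1.06). The Ccdc48 site had a fold of 4.56 over its surroundings, with C/EBPa and both marks in both strains and p65 in 2 libraries of each strain. A pseudocount of 50 ended the RNA-Seq calls of Tspan32, Acpp, 5830416I19Rik, Sik1, Plac8, Ece1 and Ccdc48 and the GRO-Seq call of Cxcr4. Testing without the filter on low values ended the RNA-Seq calls of Mertk, Gpr183, Sik1, 5830416I19Rik and Ccdc48. Centring each library on its median ended those of Tgfbr2 and Ccdc48.

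**Figure D4:**
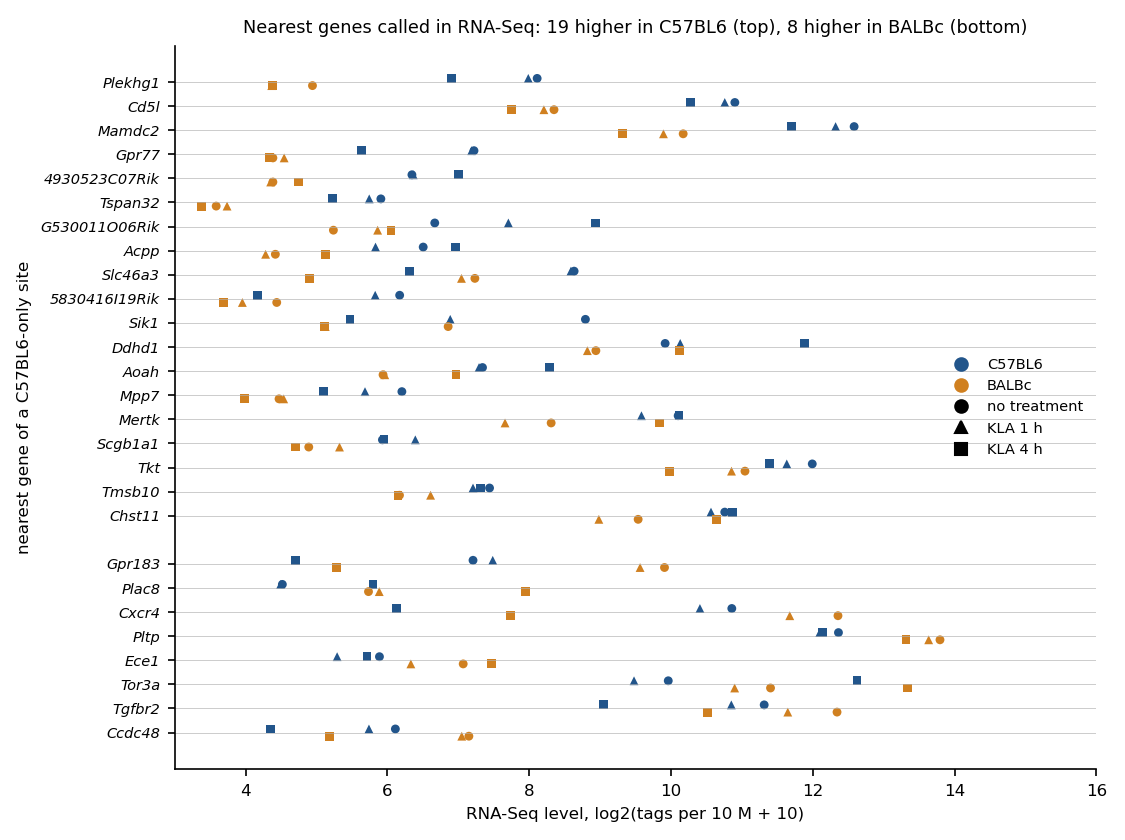
RNA-Seq level of the 27 called nearest genes, log2(tags per 10 M + 10) on the x axis, 1 gene per row, each point 1 library; colour is strain and shape is treatment. The strains are fully separated in genes such as Plekhg1, Cd5l, Mamdc2 and Pltp. They overlap across treatments in Slc46a3, 5830416I19Rik, Sik1, Ddhd1, Mertk, Chst11, Gpr183, Plac8, Cxcr4, Tor3a, Tgfbr2 and Ccdc48.

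Of 6 lists of macrophage genes (23 to 36 tested genes each), 11 tested genes were nearest to a member. Of all 10715 tested genes, 256 (2.39%) were. Among PU.1, its partners and lineage factors these were Runx1, Jun, Maf, Tfeb and Id2. Of these 5, 0 were called, where 1.2% of all tested genes were higher in C57BL6/J and 2.52% in BALBc/J. Their log2 differences ran from -0.48 (Id2) to 0.16 (Jun). Id2, an inhibitor of helix-loop-helix factors, had 2 members, of which the stronger had 98.2 PU.1 tags per 10 M and H3K4me2 and p65 in C57BL6/J alone. Of macrophage identity genes, Mertk was called and Emr1, which encodes F4/80, had 0.61 with an adjusted p of 0.0434, under the 2-fold limit. Of complement and phagocytic receptors, the Fc receptors Fcgr2b and Fcgr3 had 0.38 and -0.23. Of lipid and lysosome genes, Plin2, a lipid droplet coat protein, had 0.08, and Gpnmb, a lysosomal glycoprotein, had 0.53 with an adjusted p of 0.0175. No tested gene of the NF-kB and cytokine list (36 tested) or of the interferon list (34 tested) was nearest to a member. With 2.39% of all tested genes nearest to a member, lists this short cannot show a lack of them.

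Cell type markers were checked in RNA-Seq. Macrophage identity genes summed to 235272 to 276026 tags per 10 M in C57BL6/J and 214013 to 242394 in BALBc/J. T and NK cell markers summed to at most 13.8, with Cd3e and Cd3d under 1 tag per 10 M in every library, and B cell markers to at most 72.2. Dendritic cell markers (68.7 to 124 in C57BL6/J, 77.3 to 155 in BALBc/J) and eosinophil and mast cell markers (164 to 530 and 145 to 431) overlapped between strains. Neutrophil markers did not: they summed to 337 to 492 in C57BL6/J and 229 to 250.3 in BALBc/J, with 0 of 2 tested called and Ngp under 1 tag per 10 M in every library. Mesothelial and fibroblast markers were higher in BALBc/J, with a sum of 2027 to 3042 in C57BL6/J and 3987 to 4673 in BALBc/J. Of 9 tested, 3 (Upk3b, Col1a1 and Dcn) were called higher in BALBc/J. Among all tested genes, 2.52% were called higher in BALBc/J and 1.2% in C57BL6/J. No gene of either short list was nearest to a member, against 2.39% of all tested genes. Their part in the nearest gene results was not tested.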

How the data were processed

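ChIP-Seq, RNA-Seq and GRO-Seq files of C57BL6/J and BALBc/J macrophages were used. F1 hybrid samples, a PU.1 sample of the strain NOD/ShiLtJ and input samples were not. The submitters' processing notes name Bowtie 0.12.7, HOMER and build mm9. Peak lists hold the authors' normalized tag signal, in tags per 10 M, and their fold ratio over input and over the surrounding region, per the file headers; both are each peak's own values. Factor peaks are 200 bp, called per library at 4-fold over input and over the surrounding 10 kb and an FDR of 0.001, per the file headers. For H3K4me2, the untreated C57BL6/J header states no region size, while the other 3 do. The authors deposited expression as log2 values of 1 plus exon tags per 10 M, per the file headers, not corrected for length.

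A readout was listed at a site if it overlapped by at least 1 bp. The nearest gene was that with the nearest start in the authors' expression table. Log2(tags per 10 M + 10), the pseudocount being 10, was fitted with limma 3.58.1 (R 4.3.3), strain plus treatment, for RNA-Seq and GRO-Seq separately, so that the treatments serve as the replicates of a strain and residual degrees of freedom are 2 and 1. The residual spread is thus how far the strain difference varied between treatments. Prior degrees of freedom were 6.09 for RNA-Seq and infinite for GRO-Seq. Each GRO-Seq p-value therefore used a variance fitted over all genes, not the gene's own spread. Fitted differences of low genes understate the ratio of their tags. The fit was tested on simulated data. Shares and permutation tests used Python 3.11.15 and scipy 1.17.1.

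The text names the 10 sites with the highest tag counts and the 5 with the highest that have C/EBPa in C57BL6/J only, the 12 largest called nearest genes per direction, those called in both assays, listed genes called and nearest to a member, Sfpi1, Cebpa and the 5 densest windows of 1 Mb. Members, lists and tests were chosen with earlier results of these data known. Alternatives varied the distance and strength limits, the overlap, the pseudocount, the filter, the centring and the libraries. No mm9 genome sequence was used here.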

Additional observations from a re-analysis of the deposited data

How the results depend on the processing

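The number of members was 785 with no distance limit, 127 at 5 kb, 71 above the 75th percentile and 251 at 8-fold or more over the surroundings (the last, and the restriction to members with PU.1 after KLA, were chosen after seeing the data). In that order, the C57BL6/J minus BALBc/J share of members (percentage points) was 13.1, 40.9, 35.2 and 32.7 for C/EBPa (22.2 as reported), 21.5, 55.9, 60.6 and 52.2 for H3K4me2 (37.3 as reported), and 14.8, 26.8, 32.4 and 30.3 for H3K27Ac (22.4 as reported). Counting only peaks at or above their own list's median gave 11.3, 21.4 and 13.4, and members with PU.1 after KLA gave 28.3, 47.2 and 26.6. The p65 difference ran from 16.1 to 46.5 points over all alternatives and from 27.2 to 32.5 without either replicate pair. Pairing the p65 replicate numbers as a replicate block left the difference at 29.8 points, with an exact permutation p of 0.5, the smallest 2 pairs allow. Nearest genes higher in C57BL6/J in RNA-Seq numbered 11 with a pseudocount of 50 and 12 with a filter of 100 tags per 10 M (19 as reported), and all such genes 60 and 72 (129 as reported). Nearest genes higher in BALBc/J numbered 5 with a pseudocount of 50, 5 at 8-fold or more and 5 with PU.1 after KLA (8 as reported), and all such genes 407 with a pseudocount of 2, 110 with 50 and 145 with a filter of 100 (270 as reported). In GRO-Seq, genes higher in C57BL6/J numbered 17 with a pseudocount of 50, 15 with a filter of 100 and 87 with centring (39 as reported), and nearest genes 13 with centring and 3 at 8-fold or more (6 as reported). GRO-Seq genes higher in BALBc/J numbered 10 with a pseudocount of 50, 88 with no filter, 11 with a filter of 100 and 28 with centring (44 as reported), and nearest genes 0, 4 with no filter, 0 with a filter of 100 and 3 when the nearest start was taken among tested genes (1 as reported). Leaving out 1 RNA-Seq library gave 17 to 26 and 8 to 12 nearest genes, and 137 to 162 and 267 to 326 of all genes. Leaving out a GRO-Seq library leaves no residual degrees of freedom and was not run. Of 279 values of named genes under alternatives 28 lost their call and 0 reversed. Without 1 RNA-Seq library some calls fell under 2-fold: Tkt (0.86) and Tgfbr2 (-0.91) without either strain at KLA 4 h, Ccdc48 (-0.94) without either at KLA 1 h, and Chst11 without either at KLA 1 h (0.72) or untreated (0.90). Causes were not tested.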
